A study of Homo sapiens with 24 samples.

Results

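Expression of 10 genes of ER-phagy and of the autophagy core was described in Panc-1 cells in which the acinar transcription factor MIST1 or PTF1a was induced. The 10 genes were taken by name from the 14406 genes listed in any of the deposited tables, and all 10 were listed and passed the filter on low counts in all 3 lines. They comprised 5 ER-phagy receptors (CCPG1, FAM134B, RTN3, TEX264 and ATL3), 2 members of the ATG8 family (GABARAPL1 and MAP1LC3B), the protease ATG4A, the phosphoinositide effector WIPI1 and the cargo receptor SQSTM1. FAM134B is the symbol in the files for the gene now called RETREG1. The genes were chosen with earlier results of these data known, and which values entered the choice is not recorded. The FDR values given for them come from fits over all genes and describe these libraries, and they are no independent support for a pattern that the choice may have used.

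Autophagy encloses cytoplasm in a double membrane, the autophagosome, and delivers it to lysosomes for breakdown. Small ubiquitin-like proteins of the ATG8 family, the LC3 and GABARAP proteins, are attached to that membrane and hold both the machinery and the cargo. In ER-phagy, receptors embedded in or bound to the endoplasmic reticulum carry a short motif that binds ATG8 proteins, so that fragments of the ER are captured. Pancreatic acinar cells make large amounts of secreted enzymes on a dense rough ER, and CCPG1 is known from mice to be needed for ER turnover and protein quality control in these cells.

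The parental Panc-1 cells are a long-used human cell line derived from a ductal carcinoma of the pancreas. All 3 derived lines were puromycin-resistant stable transformants screened as individual clones, so that a line may stand for 1 clone, and they carried the empty Tet-One plasmid (Tet-One), the plasmid with the rat MIST1 open reading frame (Tet-MIST1) or that with the mouse PTF1a open reading frame (Tet-PTF1a). Each line gave 4 Control libraries without doxycycline (Dox) and 4 Dox libraries after 72 h in 1 µg/ml Dox, and the passage was 32 for Tet-One and Tet-PTF1a and 33 for Tet-MIST1. The study's methods call the 4 samples of a group biological replicates and do not say how the cultures were separated, so p-values measure the spread between these samples.

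Reads counted on the listed genes ran from 35863825 to 41648040 per library in Tet-One, from 33402628 to 42510942 in Tet-MIST1 and from 17210989 to 43018494 in Tet-PTF1a. The 5 epithelial and ductal markers examined (KRT7, KRT8, KRT18, KRT19 and SOX9) were listed in all 3 lines, and 0 of the 7 markers of leukocytes, endothelium, erythrocytes, hepatocytes and islets examined were listed in any of them. Of 4 acinar digestive enzyme genes, 0 were listed in Tet-One and Tet-MIST1 and 1 in Tet-PTF1a. Human PTF1A had 0 to 2 counts in the Tet-PTF1a Control libraries and 53 to 168 counts in the Dox libraries, although mouse PTF1a was the factor induced. BHLHA15, the human MIST1 gene, was not listed in Tet-MIST1, so the induction of rat MIST1 could not be checked in these tables. Tet-One Dox replicate 1 stood apart from the other Tet-One libraries. With it the biological coefficient of variation in Tet-One was 14.4%, and without it 4.79%, where Tet-MIST1 had 6.58% and Tet-PTF1a 2.80%. Comparisons with the response in Tet-One are given with and without this library. Tet-MIST1 Dox replicate 1 also lay apart from its replicates, with a chi-square of the counts per degree of freedom of 27.3 to 45.1 against 5.31 to 7.71 among the other 3, and without it the coefficient in Tet-MIST1 was 4.11%.

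The 300 bases around a transcription start (250 before it and 50 after) are shown for the 2 genes with the largest rise in Tet-MIST1 and for the receptor that fell in both induced lines, because MIST1 and PTF1a are basic helix-loop-helix factors that bind E boxes. The sequences are those of RefSeq on GRCh38.p14, in the direction of transcription, with each match to the E box CANNTG in capitals. They lie at chr15:55408310-55408609 on the minus strand for CCPG1, chrX:108091528-108091827 on the plus strand for ATG4A and chr5:16616948-16617247 on the minus strand for FAM134B (the first of its starts).
CCPG1: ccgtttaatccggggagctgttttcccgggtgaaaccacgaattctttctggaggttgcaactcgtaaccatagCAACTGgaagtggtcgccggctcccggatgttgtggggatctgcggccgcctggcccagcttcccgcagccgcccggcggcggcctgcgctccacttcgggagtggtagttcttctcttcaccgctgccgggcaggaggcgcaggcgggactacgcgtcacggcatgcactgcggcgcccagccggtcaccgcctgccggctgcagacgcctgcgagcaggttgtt
ATG4A: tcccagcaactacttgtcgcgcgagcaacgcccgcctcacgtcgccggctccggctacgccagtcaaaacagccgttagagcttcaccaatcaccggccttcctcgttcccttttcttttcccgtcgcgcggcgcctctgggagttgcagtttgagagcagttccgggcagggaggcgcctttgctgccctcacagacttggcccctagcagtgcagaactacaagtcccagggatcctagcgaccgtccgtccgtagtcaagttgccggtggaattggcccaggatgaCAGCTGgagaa
FAM134B: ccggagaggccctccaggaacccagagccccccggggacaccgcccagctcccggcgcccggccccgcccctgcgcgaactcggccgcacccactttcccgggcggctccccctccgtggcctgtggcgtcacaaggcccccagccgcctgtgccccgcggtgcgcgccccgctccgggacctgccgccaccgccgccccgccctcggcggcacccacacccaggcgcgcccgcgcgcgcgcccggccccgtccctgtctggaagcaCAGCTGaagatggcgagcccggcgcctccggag

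RefSeq promoters were found for all 10 genes, 13 windows in all, because FAM134B has 2 starts and SQSTM1 has 3. In the CCPG1 window the only E box found has its first base 176 bases before the start. In the ATG4A window the only one begins at base 39 after the start and in the FAM134B window at base 17 after it, and both of these have GC in the centre, the form CAGCTG. Windows of GABARAPL1, WIPI1 and SQSTM1 (the first of 3) also held this GC form, and those of RTN3, TEX264 and ATL3 held no E box of any form. The other window of FAM134B and the other windows of SQSTM1 held no E box either, and gene counts do not show which start was used. Over all 35116 RefSeq promoter windows of the same length, 17.9% held the GC form and 68.7% held an E box of any form. Over the 15333 of these windows that belong to listed genes, the shares were 17.5% and 61.1%. Both patterns read the same on either strand, so 1 search covers both, and each match to the GC form is also a match to the general one. These matches are a description of letters in a window, and no binding was measured.

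The first question was how abundant the 10 transcripts were without Dox. Per kilobase of exon, SQSTM1, a receptor that brings ubiquitinated cargo to the autophagosome, had the highest level in all 3 lines, at 134 ± 4.75 CPM per kb in Tet-One Control (SD, n = 4), 280 ± 5.26 in Tet-MIST1 Control and 143 ± 3.02 in Tet-PTF1a Control. MAP1LC3B, which encodes the LC3B protein used to mark autophagosomes, came next with 57.9 ± 4.96, 50.0 ± 1.72 and 73.7 ± 3.58 CPM per kb in the same order. CCPG1 and FAM134B were the lowest in each line, with CCPG1 at 1.29 ± 0.137, 2.11 ± 0.106 and 1.80 ± 0.206 CPM per kb and FAM134B at 1.25 ± 0.0952, 1.42 ± 0.0778 and 1.54 ± 0.112 CPM per kb. The ranges of mean ± SD of these 2 genes overlapped in Tet-One and Tet-PTF1a, and so did those of GABARAPL1, ATG4A and WIPI1 in Tet-MIST1 and of GABARAPL1 and TEX264 in Tet-PTF1a. Every other pair of neighbours in the order of a line was separated by more than that spread. In counts, CCPG1 was covered by 215 to 1452 reads per library and FAM134B by 68 to 247, against 5844 to 40607 for SQSTM1, so counting error is largest for FAM134B.

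**Figure D1:**
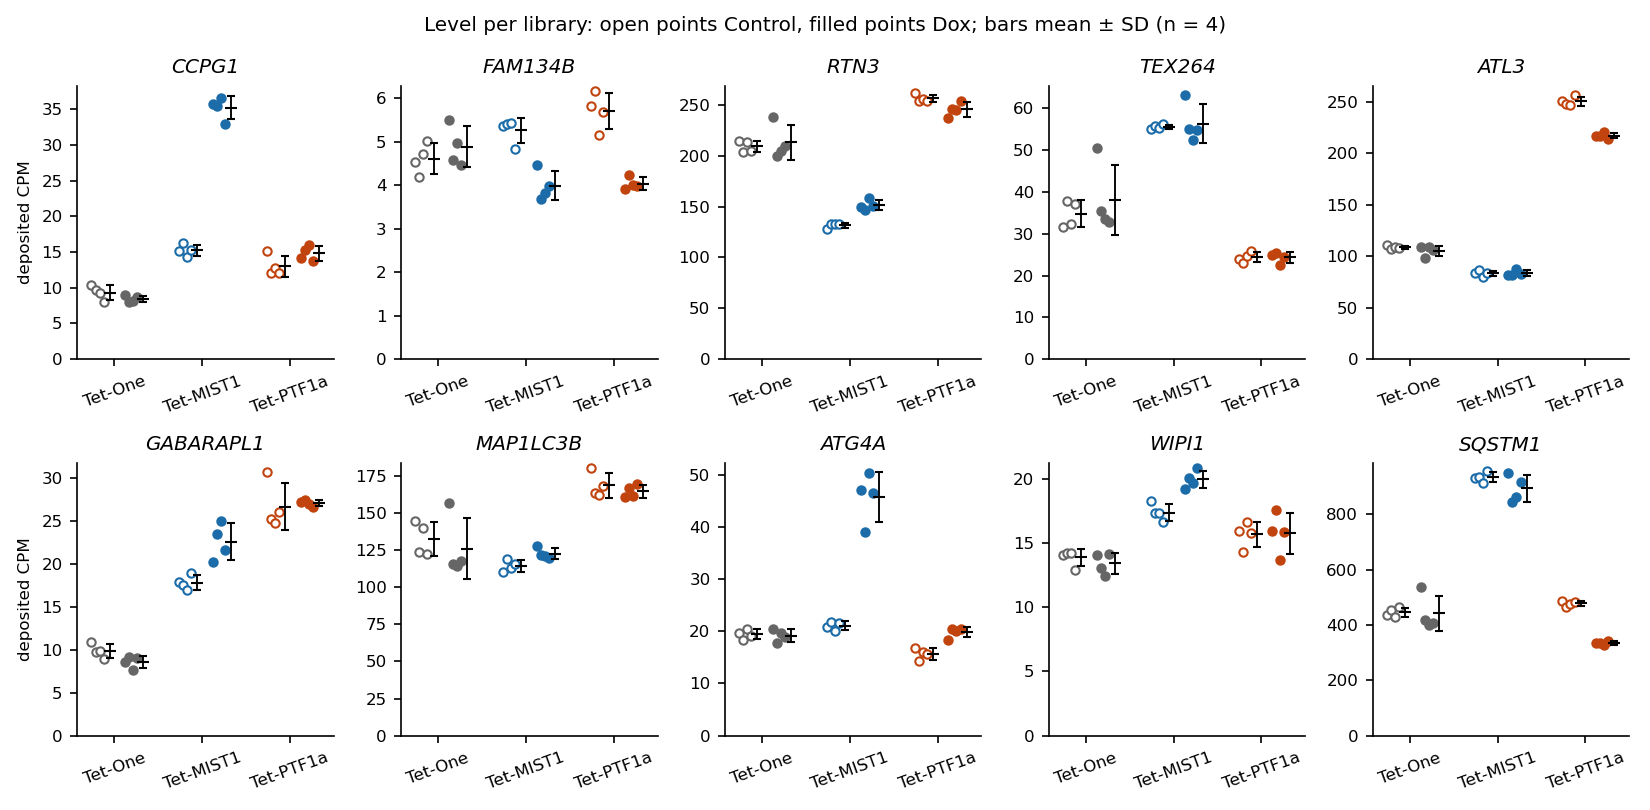
Deposited CPM of each of the 10 genes in every library, with open points for Control, filled points for Dox and black bars for the mean ± SD of the 4 libraries of a group. CCPG1 and ATG4A stand clear of their Control libraries in Tet-MIST1, and SQSTM1, ATL3 and FAM134B lie below theirs in Tet-PTF1a.

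Dox alone, in Tet-One, changed none of the 10 genes at FDR under 0.05. Their log2 fold changes ran from -0.19 for GABARAPL1 to 0.14 for TEX264, with a median of -0.026, and the Dox and Control libraries of all 10 overlapped, where those of 2.44% of all genes tested did not (1.27% higher and 1.17% lower). Across all 13428 genes tested, 0 were called by edgeR's quasi-likelihood test (0%), 401 had an unadjusted p under 0.05, and DESeq2 also called 0. Dox replicate 1 had the highest level of SQSTM1, TEX264, MAP1LC3B and RTN3 among the 4 Tet-One Dox libraries, for instance 538 CPM of SQSTM1 against 402 to 419.8 CPM in the other 3. Without that library 1 gene of 13407 was called (0.00746%) and again none of the 10, and the log2 fold changes of the 10 ran from -0.20 for MAP1LC3B to 0.020 for FAM134B.

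The next question was how the 10 genes responded when MIST1 was induced. In Tet-MIST1, 5 rose and 1 fell among the 10, with CCPG1 and ATG4A each more than 2-fold higher and the other 4 log2 fold changes between -0.39 and 0.35. Over all 13623 genes tested in this line, 20.6% were called, 11.9% higher and 8.77% lower. The median log2 fold change was 0.16 over the 10 genes and -0.0036 over all genes tested.

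CCPG1 encodes an ER membrane protein that binds ATG8 proteins and the ULK scaffold FIP200 in ER-phagy. Its level was 15.2, 16.2, 14.3 and 15.3 CPM in the 4 Tet-MIST1 Control libraries and 35.8, 35.5, 36.7 and 32.9 CPM in the 4 Dox libraries. All Dox libraries lay above all Control libraries, and the lowest Dox library was at more than 2-fold the highest Control library. The log2 fold change was 1.21 (SE 0.055, FDR 7.44e-08 in edgeR's quasi-likelihood test), a 2.32-fold rise, and CCPG1 had the 30th highest log2 fold change of the 13623 genes. CCPG1 (chromosome 15 of hg19, 55647421 to 55700708, minus strand) shares 426 bases of its span with PIGB on the opposite strand.

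ATG4A encodes a cysteine protease that trims newly made GABARAP-type ATG8 proteins and frees them from membranes. Its level was 20.8, 21.9, 20.1 and 21.6 CPM in the Tet-MIST1 Control libraries and 47.1, 39.0, 50.4 and 46.6 CPM in the Dox libraries. The groups did not overlap, and Dox replicate 2 was the lowest of the Dox libraries. The log2 fold change was 1.13 (SE 0.073, FDR 2.26e-06 in edgeR's quasi-likelihood test), a 2.18-fold rise. ATG4A lies on chromosome X of hg19, 107334899 to 107397901, plus strand, and no other listed gene overlapped it.

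GABARAPL1, an ATG8 protein of the GABARAP branch, was at 17.8, 17.5, 16.9 and 18.9 CPM in the Tet-MIST1 Control libraries and at 20.2, 23.5, 25.0 and 21.6 CPM in the Dox libraries. The groups did not overlap, although the lowest Dox library lay close to the highest Control library. The log2 fold change was 0.35 (SE 0.068, FDR 0.00456 by edgeR). RTN3, a reticulon that shapes ER tubules and whose long form is an ER-phagy receptor, went from 132 ± 2.49 CPM in Control up to 151 ± 4.91 CPM in Dox (SD, n = 4), and its log2 fold change was 0.21 (SE 0.041, FDR 0.00461 by edgeR). Gene counts do not separate the long and short forms of RTN3. WIPI1, which binds PI3P on the forming autophagosome, went from 17.4 ± 0.669 CPM up to 19.96 ± 0.683 CPM, and its log2 fold change was 0.21 (SE 0.052, FDR 0.0165 by edgeR). The whole 36232 bases of WIPI1 lie within the span of PRKAR1A on the opposite strand. The WIPI1 call was lost without Control replicate 3 (FDR 0.0551) and without Control replicate 4 (FDR 0.0529), and after the trend with gene length was removed (log2 fold change 0.14, FDR 0.0929).

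FAM134B, a reticulon-type receptor that bends ER sheets, moved the other way. It was at 5.37, 5.42, 5.44 and 4.83 CPM in the Tet-MIST1 Control libraries and at 4.46, 3.69, 3.82 and 3.98 CPM in the Dox libraries. All Dox libraries lay below all Control libraries. The log2 fold change was -0.39 (SE 0.084, FDR 0.00862 by edgeR).

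The other 4 genes did not pass the test in Tet-MIST1. MAP1LC3B was at 114 ± 3.94 CPM in Control and 123 ± 3.65 CPM in Dox (SD, n = 4), and its groups did not overlap, with a log2 fold change of 0.11 (95% interval 0.015 to 0.20, FDR 0.0916 by edgeR). In this line 27.1% of all genes tested had groups that did not overlap. TEX264, a single-pass ER membrane receptor, had a log2 fold change of 0.032 (interval -0.097 to 0.16), ATL3, a GTPase that fuses ER tubules, one of 0.013 (interval -0.082 to 0.11) and SQSTM1 one of -0.053 (interval -0.16 to 0.054).

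**Figure D2:**
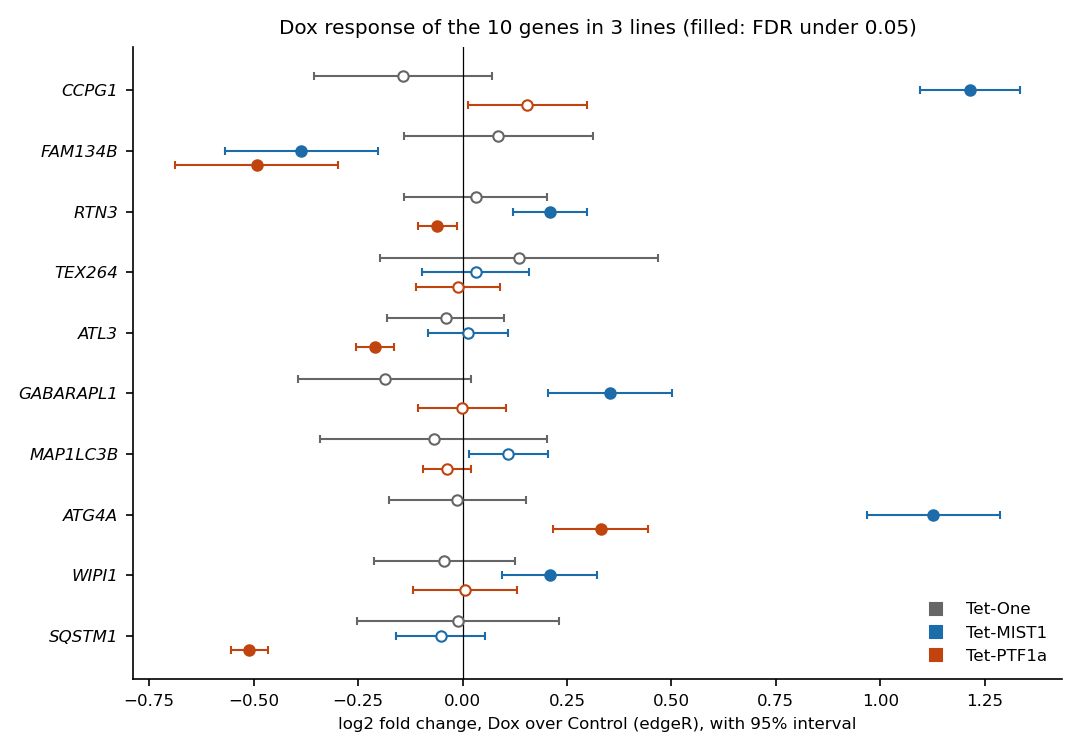
Log2 fold change of Dox over Control with its 95% interval for the 10 genes in the 3 lines, from edgeR. Filled points mark FDR under 0.05. CCPG1 and ATG4A lie beyond 1 in Tet-MIST1, SQSTM1 lies at -0.51 in Tet-PTF1a, and FAM134B lies below 0 in both induced lines.

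In Tet-PTF1a, 1 of the 10 genes rose and 4 fell, and the changes were smaller than the largest in Tet-MIST1. Over all 14053 genes tested in this line, 48.2% were called, 23.8% higher and 24.4% lower. The count of 5 of 10 is therefore close to the share of all genes. The median log2 fold change was -0.024 over the 10 genes and 0.0014 over all genes tested.

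SQSTM1 and FAM134B had the largest falls, and their 95% intervals overlapped. SQSTM1 was at 489, 465, 477 and 482 CPM in the Tet-PTF1a Control libraries and at 336, 337, 327 and 343 CPM in the Dox libraries. The 2 groups were far apart relative to the spread within each. The log2 fold change was -0.51 (SE 0.022, FDR 9.81e-26 by edgeR), a level at 0.702 of the Control level. SQSTM1 (chromosome 5 of hg19, 179233388 to 179265077, plus strand) overlaps MGAT4B over 565 bases and C5orf45 over 812 bases, both on the opposite strand.

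FAM134B was at 5.82, 6.16, 5.16 and 5.69 CPM in the Tet-PTF1a Control libraries and at 3.91, 4.24, 4.02 and 3.99 CPM in the Dox libraries, again with no overlap, as for 42.3% of all genes tested in this line. Its log2 fold change was -0.49 (SE 0.097, FDR 2.89e-05 by edgeR). The mean of ATL3 fell to 217 ± 2.57 CPM from a Control mean of 250.5 ± 4.22 CPM (SD, n = 4), and its log2 fold change was -0.21 (SE 0.023, FDR 3.75e-11 by edgeR). RTN3 was called lower at a log2 fold change of -0.061 (SE 0.023, FDR 0.0267 by edgeR), from 256 ± 3.91 to 246 ± 7.08 CPM, with overlapping groups. That call was lost with scaling by library size alone (log2 fold change -0.024, FDR 0.41), with DESeq2 (FDR 0.0551), with all 24 libraries in one fit (FDR 0.396) and without Control replicate 1, Dox replicate 1 or Dox replicate 2 (FDR 0.0808, 0.159 and 0.0566). ATL3 and RTN3 are neighbours on chromosome 11, transcribed away from each other with 9475 bases between their listed spans.

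ATG4A was the gene that rose. It was at 16.9, 14.2, 15.98 and 15.6 CPM in the Tet-PTF1a Control libraries and at 18.4, 20.5, 20.1 and 20.4 CPM in the Dox libraries. The Dox libraries all lay above the Control libraries, with a log2 fold change of 0.33 (SE 0.057, FDR 2.57e-06 by edgeR). CCPG1 was at 15.2, 12.04, 12.8 and 12.1 CPM in Control and 14.2, 15.3, 15.97 and 13.8 CPM in Dox. Control replicate 1, the deepest library of the line, lay within the Dox range, and the other 3 Control libraries lay below it. The log2 fold change of CCPG1 was 0.15 (95% interval 0.013 to 0.30, FDR 0.0663 by edgeR). Without Control replicate 1 it was 0.26 (FDR 0.00115), without Dox replicate 4 it was 0.20 (FDR 0.0251), and with scaling by library size alone it was 0.19 (FDR 0.0201). Only 2 of the 8 fits that left out 1 library called CCPG1. Over these 8 fits its log2 fold change went down to 0.10, with FDR up to 0.268 by edgeR.

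The remaining 4 genes did not pass the test in Tet-PTF1a. Their log2 fold changes were -0.011 for TEX264 (95% interval -0.11 to 0.089), -0.00099 for GABARAPL1 (interval -0.11 to 0.10), -0.037 for MAP1LC3B (interval -0.094 to 0.020) and 0.0053 for WIPI1 (interval -0.12 to 0.13). The first Control library of the line had the highest GABARAPL1 of the 8, at 30.6 CPM, and without it the log2 fold change was 0.086 (FDR 0.156 by edgeR).

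Because a call in one line and none in another does not show a difference, the responses were compared directly as an interaction of line and Dox on the deposited counts of both lines. The 2 comparisons with Tet-One share the Tet-One libraries, and each is given by its own values. Between Tet-MIST1 and Tet-One, 1.66% of the 13879 genes tested differed (1.48% with the higher response in Tet-MIST1), and 3 of the 10 did, all with the larger response in Tet-MIST1. The difference in log2 fold change was 1.35 for CCPG1 (SE 0.104, FDR 2.82e-06), 1.13 for ATG4A (SE 0.104, FDR 1.59e-05) and 0.53 for GABARAPL1 (SE 0.113, FDR 0.0234 by edgeR). The GABARAPL1 call was kept in 9 of the 16 fits that left out 1 library, with FDR up to 0.0651, whereas those of CCPG1 and ATG4A were kept in all 16. Without Tet-One Dox replicate 1, 13.9% of all genes differed and 7 of the 10 did. The FAM134B difference with all libraries did not pass by edgeR (-0.48, FDR 0.0647), and 2 of the 16 fits that left out 1 library called it. It passed with all libraries by DESeq2 (-0.48, FDR 0.0255) and by edgeR with scaling by library size alone (-0.45, FDR 0.0498). The additional 4 without Tet-One Dox replicate 1 were FAM134B at -0.40 (FDR 0.0328), RTN3 at 0.25 (FDR 0.00883), MAP1LC3B at 0.31 (FDR 0.013) and WIPI1 at 0.28 (FDR 0.0272 by edgeR). These differences include the values in Tet-One, where no gene of the 10 was called. For MAP1LC3B the log2 fold change was 0.11 in Tet-MIST1, also not called, and -0.20 in Tet-One without that library. Only 1 of the 16 fits that left out 1 library called its difference. GABARAPL1 was at -0.19 in Tet-One with all libraries.

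Between Tet-PTF1a and Tet-One, 12.9% of the 13526 genes tested differed, 5.52% with the higher and 7.36% with the lower response in Tet-PTF1a, and 3 of the 10 did. The difference in log2 fold change was -0.58 for FAM134B (SE 0.119, FDR 0.00357), -0.50 for SQSTM1 (SE 0.108, FDR 0.0051) and 0.35 for ATG4A (SE 0.092, FDR 0.0181 by edgeR), and these calls were kept in all 16 fits that left out 1 library. Without Tet-One Dox replicate 1, 30.7% of all genes differed and 5 of the 10 did, with CCPG1 at 0.34 (FDR 0.0308) and ATL3 at -0.15 (FDR 0.0103 by edgeR) added and SQSTM1 at -0.38. With all libraries ATL3 did not pass by edgeR (-0.17, FDR 0.0766) and passed by DESeq2 (-0.17, FDR 0.00543). Of the 16 fits that left out 1 library, 2 called it.

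Between Tet-PTF1a and Tet-MIST1, 36.4% of the 13526 genes tested differed, 18.6% with the lower response in Tet-PTF1a. Of the 10 genes, 6 differed, and all 6 had the lower response in Tet-PTF1a. The difference in log2 fold change was -1.04 for CCPG1 (SE 0.099, FDR 4.41e-08), -0.78 for ATG4A (SE 0.099, FDR 2.52e-06) and -0.45 for SQSTM1 (SE 0.055, FDR 1.53e-06 by edgeR). It was -0.33 for GABARAPL1 (FDR 0.009), -0.26 for RTN3 (FDR 0.000173) and -0.21 for ATL3 (FDR 0.00134). These 6 calls were kept in all 16 fits that left out 1 library. FAM134B, which fell in both lines, had a difference of -0.097 (95% interval -0.34 to 0.15).

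The other genes of autophagy were taken from 9 lists written from general knowledge, 98 genes in all without the 10, of which 95 to 97 were tested in a line. In Tet-One 0 of 95 were called. In Tet-MIST1 27 of 96 were called, 21 higher and 6 lower, with a median log2 fold change of 0.020, beside 20.6% of all genes. In Tet-PTF1a 49 of 97 were called, 22 higher and 27 lower, with a median of -0.024, beside 48.2% of all genes. By the test of the difference from Tet-One, 2 of 96 had a different response in Tet-MIST1, both higher, beside 1.66% of all genes, and 8 of 96 did in Tet-PTF1a, 3 higher and 5 lower, beside 12.9%. Without Tet-One Dox replicate 1 these counts were 20 of 96 in Tet-MIST1, 18 higher and 2 lower, beside 13.9% of all genes, and 20 of 96 in Tet-PTF1a, 10 higher and 10 lower, beside 30.7%.

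Of the 16 further ER-phagy factors, 6 rose and 0 fell in Tet-MIST1, with a median of 0.093, where 11.9% of all genes rose and 8.77% fell. Against the response in Tet-One, 0 of the 16 differed in either line, but without Tet-One Dox replicate 1 the response of 7 was higher in Tet-MIST1, and in Tet-PTF1a that of 2 was higher and that of 1 lower. Without that library 13.9% of all genes differed in Tet-MIST1 and 30.7% in Tet-PTF1a. Named after their values were seen, those that rose included CALCOCO1, an ER-phagy receptor, at a log2 fold change of 0.58 (FDR 0.00121), SEC62, a translocon subunit that also acts in ER recovery by autophagy, at 0.35 (FDR 0.000756 by edgeR), and 3 genes of the UFM1 conjugation system. UFM1 is a ubiquitin-like protein attached at the ER, and its system is needed for ER-phagy. Its ligase partner CDK5RAP3 rose by 0.38 (FDR 0.000159), UFM1 itself by 0.22 (FDR 0.0282) and its conjugating enzyme UFC1 by 0.19 (FDR 0.0189 by edgeR). In Tet-PTF1a 5 of the 16 rose and 4 fell, with a median of 0.0057, where 23.8% of all genes rose and 24.4% fell. CDK5RAP3 (-0.091) and UFC1 (-0.17) were among those that fell, while DDRGK1 and UFSP2, also of the UFM1 system, were among those that rose. By the test of the difference between the induced lines, 7 of the 16 had a lower and 2 a higher response in Tet-PTF1a, beside 18.6% and 17.8% of all genes.

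Among the selective cargo receptors, 5 of 13 rose and 0 fell in Tet-MIST1, where 11.9% of all genes rose and 8.77% fell. In Tet-PTF1a 2 rose and 7 fell, where 23.8% of all genes rose and 24.4% fell. Against the response in Tet-One, 0 of 13 differed in Tet-MIST1 and 1, BNIP3L, was lower in Tet-PTF1a, beside 1.66% and 12.9% of all genes that differed. Without Tet-One Dox replicate 1, 4 were higher in Tet-MIST1, and 3 were higher and BNIP3L lower in Tet-PTF1a, beside 13.9% and 30.7% of all genes. Named after their values were seen, the mitophagy receptors BNIP3L and BNIP3, the xenophagy receptor CALCOCO2 and the glycogen receptor STBD1 had the largest falls in Tet-PTF1a, at log2 fold changes of -0.36, -0.31, -0.35 and -0.34, beside -0.51 for SQSTM1. In the ATG8 family outside the 10, GABARAP rose in Tet-MIST1 (0.25, FDR 0.00985) and fell in Tet-PTF1a (-0.15, FDR 2.27e-05 by edgeR), and the other 3 tested did not pass in either line. Of the ATG8 conjugation enzymes and other ATG4 proteases, 2 rose and 2 fell in each line. The ULK kinase complex (5 genes) and the PI3-kinase complex with early membrane factors (10 genes) had 0 called in Tet-MIST1. In Tet-PTF1a, 1 rose and 1 fell in the first and 3 rose and 4 fell in the second. Of the ATG9, ATG2 and WIPI proteins 1 of 7 rose in Tet-MIST1, and 2 rose and 1 fell in Tet-PTF1a. Of the 14 fusion factors 1 rose and 1 fell in Tet-MIST1, and 4 rose and 2 fell in Tet-PTF1a. Among the upstream regulators 5 rose and 3 fell of 17 tested in Tet-MIST1, and 3 rose and 5 fell of 18 in Tet-PTF1a. Beside the counts of these lists, 20.6% of all genes were called in Tet-MIST1 and 48.2% in Tet-PTF1a.

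**Figure D3:**
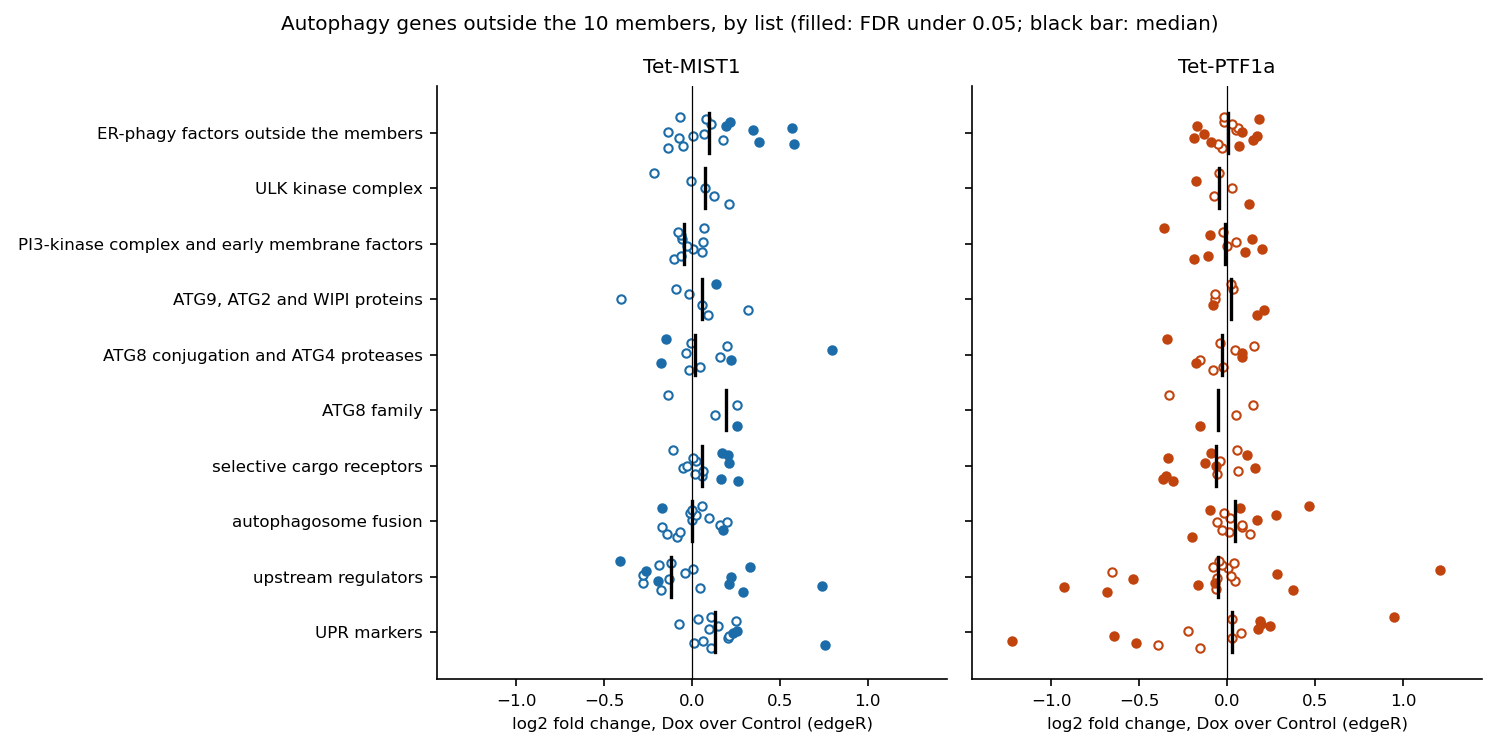
Log2 fold change of Dox over Control for the autophagy genes outside the 10 and for markers of the unfolded protein response (UPR), by list, in Tet-MIST1 and Tet-PTF1a. Each point is a gene, filled points have FDR under 0.05 and the black bar is the median of the list. All 6 filled points among the ER-phagy factors lie above 0 in Tet-MIST1, against 5 above and 4 below in Tet-PTF1a.

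The genes of these lists and of the UPR markers with the largest changes were picked by size in each line. In Tet-MIST1 the 4 with the largest rise were ATG4C, ATF3, MITF and CALCOCO1. ATG4C, a protease of the same family as ATG4A, went from 13.3 ± 0.765 CPM up to 22.9 ± 2.17 CPM (SD, n = 4), and its log2 fold change was 0.79 (SE 0.073, FDR 3.35e-05 by edgeR). ATF3, a stress-response factor, and MITF, a transcription factor of the TFEB family that controls lysosomal and autophagy genes, rose by 0.76 and 0.74. Those with the largest fall were ZKSCAN3 (-0.41), a zinc finger protein described as a repressor of autophagy genes, SESN2 (-0.26), PRKAA1 (-0.19), ATG16L1 (-0.18) and VPS41 (-0.17). The PRKAA1, ATG16L1 and VPS41 calls were kept in 4, 3 and 4 of the 8 fits that left out 1 library, and the other 6 of those named in all 8. Against the response in Tet-One, ATG4C, ATF3 and MITF differed (FDR 0.0335, 0.000483 and 0.00582 by edgeR). CALCOCO1, ZKSCAN3, SESN2, PRKAA1, ATG16L1 and VPS41 did not (FDR 0.0937 to 0.874 by edgeR), and for SESN2 the difference was 0.20, opposite in sign to its fall. Without Tet-One Dox replicate 1, CALCOCO1 and ZKSCAN3 also differed.

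In Tet-PTF1a the 5 with the largest rise were SESN3, XBP1, YKT6, FOXO1 and SESN1. SESN3, a sestrin that restrains mTORC1, went from 3.20 ± 0.418 CPM up to 7.56 ± 0.803 CPM (SD, n = 4), and its log2 fold change was 1.21 (SE 0.101, FDR 1.35e-14 by edgeR). XBP1, a transcription factor of the UPR, rose by 0.95 and YKT6, a SNARE of autophagosome fusion, by 0.46, from 253 ± 3.54 to 348 ± 1.30 CPM. Those with the largest fall were CHAC1 (-1.22), MITF (-0.93), DDIT4 (-0.68), DDIT3 (-0.64) and PRKAA2 (-0.54). MITF thus fell in Tet-PTF1a, from 10.3 ± 0.460 to 5.43 ± 0.342 CPM, and rose in Tet-MIST1, from 1.76 ± 0.100 to 2.94 ± 0.0846 CPM, and the difference between the responses was -1.65 (FDR 1.86e-10 by edgeR). The DDIT3 call was kept in 4 of the 8 fits that left out 1 library. Against the response in Tet-One, XBP1, YKT6, SESN1, MITF and DDIT4 differed (FDR 0.000826 to 0.0425 by edgeR). FOXO1, CHAC1, DDIT3 and PRKAA2 did not (FDR 0.0582 to 0.433 by edgeR), and SESN3 was not tested in that comparison. Without Tet-One Dox replicate 1, PRKAA2 also differed and DDIT4 no longer passed. Of the 14 UPR markers 3 rose and 0 fell in Tet-MIST1, and 5 rose (HSPA5, HSP90B1, XBP1, SDF2L1 and PDIA4) and 3 fell (DDIT3, ATF4 and CHAC1) in Tet-PTF1a. Of all genes, 20.6% and 48.2% were called in these lines. Against the response in Tet-One, 1 of 14 was higher in Tet-MIST1 and 3 in Tet-PTF1a, with 0 lower, beside 1.66% and 12.9% of all genes that differed. Without Tet-One Dox replicate 1 these were 8 and 5, again with 0 lower, beside 13.9% and 30.7%. The median log2 fold change of the 14 was 0.13 in Tet-MIST1 and 0.028 in Tet-PTF1a. In Tet-One it was -0.13, and -0.30 without that library, with 0 called. These differences thus include the values in Tet-One, whose median was below 0 although no marker passed the test there.

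Genes whose pattern over the 24 libraries was most like that of CCPG1 were found by Pearson's r of log2 CPM, centred on the Control mean of each line, among 12978 genes with a mean above 1 CPM. They were HID1 (r = 0.972), TBC1D15 (0.972), C1orf27 (0.97), ATG4A (0.964) and SC5D (0.963). Their log2 fold changes in Tet-MIST1 were 1.39, 0.49, 0.79, 1.13 and 0.40, and the largest in Tet-PTF1a was 0.33, for ATG4A. For SQSTM1 they were C11orf68 (r = 0.9746), KRT18 (0.973), ECH1 (0.971), ALDOA (0.97) and MT1A (0.97), which changed by -0.64, -1.10, -0.66, -0.61 and -1.67 in Tet-PTF1a. The points share their lines and Dox groups, so a high r shows the same group pattern over 6 groups.

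The last comparison was between the lines without Dox. Against uninduced Tet-One, 80.2% of the 13825 genes tested differed in Tet-MIST1 and 79.6% of 13449 in Tet-PTF1a (40.7% and 40.1% lower than Tet-One), and 9 and 8 of the 10 did, a share near that of all genes. Line, clone, library set and, for Tet-MIST1, passage cannot be told apart here. CPM on a scale common to all 24 libraries are used for levels across lines, since the deposited tables were scaled by line. SQSTM1 was at 946 ± 17.8 CPM on that scale in Tet-MIST1 Control, 454 ± 14.2 in Tet-One Control and 464 ± 11.1 in Tet-PTF1a Control (SD, n = 4), a log2 ratio to Tet-One of 1.06 (SE 0.033) in Tet-MIST1 and 0.016 (SE 0.030) in Tet-PTF1a. CCPG1 was higher than in Tet-One in both lines, by 0.70 (SE 0.071) and 0.41 (SE 0.090), and its level on the common scale was 35.99 ± 1.71 CPM in Tet-MIST1 Dox, above all 5 other groups, which ran from 8.57 to 15.4 CPM. GABARAPL1 was higher by 0.85 and 1.37. The pattern of the other receptors differed between the lines, with ATL3 lower in Tet-MIST1 (-0.39) and higher in Tet-PTF1a (1.12), RTN3 likewise (-0.68 and 0.21) and TEX264 the reverse (0.67 and -0.59). The FAM134B call in Tet-MIST1 (0.18, FDR 0.0432 by edgeR) was kept in 2 of the 8 fits that left out 1 library.

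**Figure D4:**
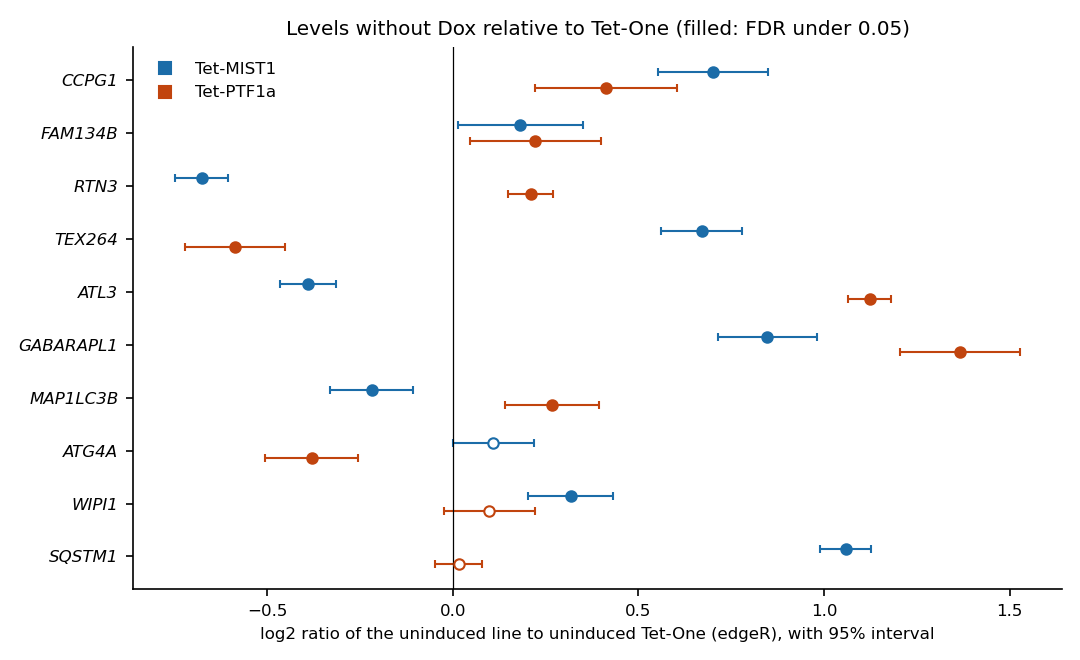
Log2 ratio of the level in uninduced Tet-MIST1 or Tet-PTF1a cells to that in uninduced Tet-One cells, with its 95% interval, from edgeR. Filled points mark FDR under 0.05. ATL3 lies at -0.39 in Tet-MIST1 and at 1.12 in Tet-PTF1a, and SQSTM1 at 1.06 and 0.016.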

How the data were processed

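RNA of 24 libraries (3 lines, Control and Dox, 4 of each) was sequenced, and the authors used TopHat to align paired reads to hg19 and dropped genes that did not exceed 0.5 CPM in 4 samples or more. The submitters' processing notes also name HTSeq, DESeq and edgeR. The use of strand in counting is not given in the sources used here, so where genes overlap, or have a close paralog as MAP1LC3B has in MAP1LC3B2, reads could have gone to either gene. The deposited tables, one per line, give a raw read count for each gene, the gene's listed exon length, and a CPM signal computed by the authors with scaled library sizes. They also hold the authors' own log2 fold change, p-value and FDR per gene, which were not used. CPM values per library in the text are the deposited ones, and CPM per kb divides them by the listed length. Tables were scaled by line, so comparisons between lines used the counts with TMM factors over all libraries compared.

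From the counts, genes above 0.5 CPM in at least 4 libraries were tested in R 4.3.3 with edgeR 4.0.16 and its quasi-likelihood test (TMM factors, robust estimation, prior count 2), with Benjamini-Hochberg adjustment over all genes tested (FDR) and calls at FDR under 0.05. Differences between lines in the Dox response were interactions of line and Dox over 16 libraries. SEs are the log2 fold change divided by the root of the test statistic, and intervals are at 95%. In 36 pairs of replicates, chi-square per degree of freedom of the counts was 1.39 to 238, so no pair agreed within sampling noise and each library counted once. The biological coefficient of variation, which sets the precision beside counting error, was 2.80% to 14.4% over the fits with all libraries. The 10 genes, the wider lists (from general knowledge) and the tests were chosen with earlier results of these data known. All 10 genes are named. Of the wider lists, in each induced line the 5 genes with the largest rise and the 5 with the largest fall are named among those called with a mean above 1 CPM and no overlap of the groups, and also the 5 genes most correlated over the 24 libraries with the member that changed most in each induced line. An item that the rule would name is not reported here. Promoters were RefSeq windows of GRCh38.p14. Alternatives were other scaling, DESeq2 1.42.0, other filters, a block for replicate number, a single fit of all 24 libraries, removal of the gene length trend, each library left out and, added after the data were seen, removal of the length and GC trends.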

Additional observations from a re-analysis of the deposited data

Results flagged for a closer look

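In 60 groups of 4 libraries (10 genes, 6 groups), 6 had a library far from the other 3 by Dixon's ratio of the gap to the range, and chance flags about 1 in 20 groups. In 3 of the 6 it was Tet-One Dox replicate 1, which was highest for TEX264 (ratio 0.857), MAP1LC3B (0.915) and SQSTM1 (0.866). The others were a low Tet-MIST1 Control replicate 4 for FAM134B (0.892), a low Tet-MIST1 Control replicate 1 for RTN3 (0.913) and a low Tet-One Control replicate 4 for WIPI1 (0.894).

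Of 30 tests of a difference in the Dox response between lines, 12 passed FDR under 0.05 in edgeR. Over all genes tested, 1.66% differed between Tet-MIST1 and Tet-One, 12.9% between Tet-PTF1a and Tet-One and 36.4% between Tet-PTF1a and Tet-MIST1. Against Tet-One, the response in Tet-MIST1 was higher by 1.35 (log2 scale) for CCPG1, 1.13 for ATG4A and 0.53 for GABARAPL1. Against Tet-One, the response in Tet-PTF1a differed by -0.58 for FAM134B, -0.50 for SQSTM1 and 0.35 for ATG4A. Against Tet-MIST1, the response in Tet-PTF1a differed by -1.04 for CCPG1, -0.78 for ATG4A, -0.45 for SQSTM1, -0.33 for GABARAPL1, -0.26 for RTN3 and -0.21 for ATL3. The 3 sets share libraries and are not independent.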

How the results depend on the processing

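Values are log2 fold changes unless called counts. Of the 10 genes, Dox called 0 in Tet-One, 6 in Tet-MIST1 (5 to 6 with 1 library left out) and 5 in Tet-PTF1a (4 to 6), and 0 in Tet-One with any 1 library left out. Uninduced, 8 to 9 were called in Tet-MIST1 and 7 to 9 in Tet-PTF1a. For the Dox response it ran from 2 to 7 in Tet-MIST1 against Tet-One (3 with all libraries; 7 without Tet-One Dox replicate 1), 3 to 5 in Tet-PTF1a against Tet-One (5 without that library) and 6 to 7 in Tet-PTF1a against Tet-MIST1. With all libraries, Dox called 0%, 20.6% and 48.2% of all genes in Tet-One, Tet-MIST1 and Tet-PTF1a. Uninduced, 80.2% were called in Tet-MIST1 and 79.6% in Tet-PTF1a. For the Dox response the shares were 1.66%, 12.9% and 36.4%, in the order given. Of the wider lists, 27 genes were called in Tet-MIST1 (13, 17 and 14 without Control replicates 1, 2 and 3, and up to 38 with another library left out) and 49 in Tet-PTF1a (43 to 50). With all 24 libraries in one fit these counts were 16 and 16, and that fit takes its spread from the Tet-One libraries as well. With the replicate number as a block the wider lists had 13 calls in Tet-MIST1. Same-numbered Control and Dox libraries did not deviate together (r from -0.24 to 0.18), so the numbers do not pair the libraries. Under the block WIPI1 in Tet-MIST1 was at 0.21 (FDR 0.0700 in edgeR), CCPG1 in Tet-PTF1a passed at 0.17 (FDR 0.0291 in edgeR), and GABARAPL1 in Tet-MIST1 against Tet-One, ATG4A in Tet-PTF1a against Tet-One and FAM134B in uninduced Tet-MIST1 lost their calls (FDR 0.165, 0.0553 and 0.0666 in edgeR). Reversals were limited to genes not called. With the length trend removed, ATL3 was at 0.11 and SQSTM1 at 0.0036 in Tet-One, TEX264 at -0.045 in Tet-MIST1, and TEX264 at 0.0012 and GABARAPL1 at 0.011 in Tet-PTF1a. With the length and GC trends removed, TEX264 was at -0.00077, ATL3 at 0.11 and SQSTM1 at 0.0049 in Tet-One, TEX264 at -0.055 in Tet-MIST1, and TEX264 at 0.0077 and GABARAPL1 at 0.0038 in Tet-PTF1a. In Tet-PTF1a, scaling by library size alone gave TEX264 0.026, GABARAPL1 0.036 and MAP1LC3B 9.03e-05, and TEX264 in Tet-PTF1a against Tet-MIST1 0.0058. GABARAPL1 in Tet-PTF1a was at 0.0077 by DESeq2, 0.000450 with at least 10 counts in every library, 0.017 with the block and 0.013 with all 24 libraries. With 1 library left out, signs turned in Tet-One for RTN3 (-0.031 to 0.061), TEX264 (-0.034 to 0.20), ATG4A (-0.049 to 0.022) and SQSTM1 (-0.12 to 0.034), in Tet-MIST1 for TEX264 (-0.030 to 0.067) and ATL3 (-0.0070 to 0.029), and in Tet-PTF1a for TEX264 (-0.033 to 0.024), GABARAPL1 (-0.033 to 0.086) and WIPI1 (-0.048 to 0.062). They also turned in Tet-MIST1 against Tet-One for TEX264 (-0.17 to 0.071) and SQSTM1 (-0.091 to 0.077), in Tet-PTF1a against Tet-One for TEX264 (-0.21 to 0.026), MAP1LC3B (-0.012 to 0.16) and WIPI1 (-0.0052 to 0.11), in Tet-PTF1a against Tet-MIST1 for TEX264 (-0.070 to 0.037), and in uninduced Tet-PTF1a for SQSTM1 (-0.0049 to 0.034). Over all genes, calls in Tet-MIST1 went from 2812 to 1463 with the block, 1707 with all 24 libraries and 1460, 1771 and 1436 without Control replicates 1, 2 and 3, those in Tet-PTF1a from 6775 to 3132 with all 24 libraries, and those in Tet-MIST1 against Tet-One from 231 to 83 with the block, 499 by DESeq2, 144, 144 and 145 without Tet-MIST1 Control replicates 1, 3 and 4, and 1930 without Tet-One Dox replicate 1, which also took those in Tet-PTF1a against Tet-One from 1742 to 4151. Other settings raised the calls over all genes in Tet-MIST1, to 3482 and 3770 without Dox replicates 1 and 2 and to 3219 by DESeq2. They were 3300 with the length trend removed and 3930 with the length and GC trends removed. Scaling by library size alone moved the higher and lower calls from 3344 and 3431 to 4392 and 2698 in Tet-PTF1a, and from 747 and 995 to 947 and 803 in Tet-PTF1a against Tet-One. The cause of these changes was not tested.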

Other observations

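Markers of the UPR differed between the lines without Dox. Of 14 tested, 1 was higher and 12 were lower in uninduced Tet-MIST1 than in uninduced Tet-One at FDR under 0.05 in edgeR, with a median log2 ratio of -0.88, beside 40.7% of all genes that were lower. In uninduced Tet-PTF1a, 1 was higher and 11 were lower, with a median of -0.44, beside 40.1% of all genes. Of the 10 genes of the PI3-kinase complex and early membrane factors, 0 were higher and 7 lower in uninduced Tet-MIST1 (median -0.44), against 5 higher and 1 lower in uninduced Tet-PTF1a (median 0.085). Line, clone and library set cannot be told apart in these comparisons.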
